A study of Arabidopsis thaliana with 60 samples.

Results

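The SAUR genes (small auxin up RNA) of Arabidopsis thaliana were followed through 6 h of auxin treatment of the root. The 37 loci described here were taken by locus identifier from the 32833 loci counted in each library. They comprise 25 loci in 5 tandem clusters and 12 dispersed loci. No threshold on a measured value set the list, but it was chosen with earlier results of these data known. SAUR genes encode short proteins, most from a single exon, and many were first recognised because their transcripts accumulate within minutes of auxin treatment. The best studied proteins bind and inhibit PP2C.D phosphatases, which otherwise remove an activating phosphate from the plasma membrane proton pumps of the AHA family, so that the pumps acidify the cell wall and the cell expands. Auxin acts on their promoters through ARF transcription factors, which Aux/IAA repressors hold inactive until auxin triggers the degradation of the repressor.

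Seedlings carried pGATA23::shy2-2-GR or pGATA23::slr-1-GR, stabilised forms of the Aux/IAA repressors IAA3 (SHY2) and IAA14 (SLR) joined to the glucocorticoid receptor, which holds a fusion protein in the cytoplasm until dexamethasone (DEX) is given. They are called the shy2-2 line and the slr-1 line here. The GATA23 promoter is known for its activity in the pericycle cells that found lateral roots, and the samples also hold the other cells of the root. At 4 days after germination all seedlings were moved to 10 µM NPA, an inhibitor of polar auxin transport, for 22 h, then to NPA with 10 µM DEX or its solvent DMSO for 2 h, and then to 10 µM of the auxin IAA with the same additive. Each of the 60 libraries pooled the lower root of about 200 seedlings, and each line had DEX and DMSO samples at 0, 1, 2, 4 and 6 h of IAA, which gave 20 groups of 3 libraries. No sample was left without IAA for 1 to 6 h and none received DEX without a fusion gene, so auxin and elapsed time, and the fusion and DEX itself, cannot be told apart. The harvest text names 0, 2, 4 and 6 h, while 12 libraries are labelled 1 h. Nothing in the labels says that replicates were separate plantings, so the p-values measure only the spread between these samples.

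Levels are given as CPM, counts scaled to a common library size, from libraries of 12.1 to 94.1 megacounts in genes (median 40.3 megacounts), and 3 counts over a group of 3 libraries correspond to 0.0159 to 0.038 CPM. GATA23 itself lay between 8.70 and 21.5 CPM in the 12 DMSO libraries of the shy2-2 line at 1 to 6 h and between 0.112 and 0.929 CPM in the 12 DEX libraries, and the slr-1 line gave 19.7 to 32.2 CPM against 0.469 to 1.33 CPM. Counts of IAA3 and IAA14 include those of the fusion transcripts. IAA14 reached 115 to 166 CPM in DMSO at 1 to 6 h in the slr-1 line and 62.6 to 123 CPM in the shy2-2 line. The run codes in the deposited files' names put DEX and DMSO libraries of the same line and time in different sequencing runs, except at 1 h in the shy2-2 line. For the comparisons with 0 h, the shy2-2 line had 0, 2, 4 and 6 h in 1 run within DMSO and within DEX, with 1 h in another, and the slr-1 line had DEX 0 and 1 h in 1 run. In every other comparison with 0 h, which includes 1 h in DMSO in both lines and all times in DMSO in the slr-1 line, auxin and the sequencing run cannot be told apart.

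Root identity genes were high in every library, with a mean of log2(CPM + 1) over 7 genes between 4.19 and 5.94. Photosynthesis genes varied more, and in 7 libraries their mean log2(CPM + 1) over 9 genes exceeded 6 (lowest 6.58, against at most 5.48 in the other 53). These 7 were replicate 2 of DEX 0 h, replicate 3 of DEX 4 h and replicate 2 of DMSO 2 h in the shy2-2 line, and replicates 1 and 2 of DEX 0 h and replicates 1 and 3 of DMSO 2 h in the slr-1 line. The mean log2(CPM + 1) of the 4 shoot identity genes AFO, YAB2, YAB3 and YAB5, which mark leaves and other lateral organs of the shoot, was 0.370 to 1.22 in the same 7 libraries and at most 0.344 in the others. Across all 60 libraries, the deviation of a member from its group mean correlated with that of the photosynthesis genes at r above 0.5 for 16 of the 37 members, most of them weakly expressed tandem genes. The highest values were 0.826 for SAUR14, 0.774 for SAUR16 and 0.722 for SAUR21, while SAUR24 gave 0.0317 and AT1G29510 gave 0.0667. The points share their libraries and depth, so these are descriptions. Counts of calls without the 7 libraries, and the named calls lost without them, are given beside the results. Leaving them out keeps only replicate 3 of DEX 0 h and only replicate 2 of DMSO 2 h in the slr-1 line. A call lost in this way can come from the smaller number of libraries or from photosynthetic RNA, and which of these was not tested.

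**Figure D1:**
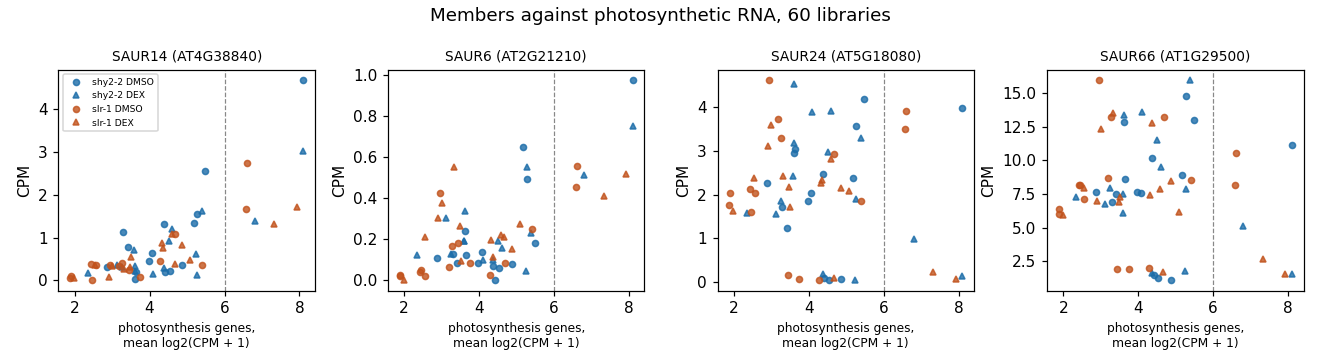
Level of 4 members (y axis, CPM) in each of the 60 libraries against the mean log2(CPM + 1) of 9 photosynthesis genes (x axis); circles are DMSO, triangles DEX, blue the shy2-2 line and orange the slr-1 line, and the dashed line marks 6. SAUR14 and SAUR6 reached their highest values in libraries right of the line, whereas SAUR24 and SAUR66 did not.

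The members differed widely in level. The highest group mean was under 1 CPM for 13 members, from 1 to 10 CPM for 12 and 10 CPM or more for 12. Per kilobase of exon, SAUR32 (AT2G46690), which in Arabidopsis is known from the apical hook, led the 0 h DMSO libraries of the shy2-2 line at 102 ± 41.4 CPM per kb (SD, n = 3). SAUR55 (26.7 ± 11.6), SAUR78 (25.2 ± 5.17), SAUR5 (21.9 ± 8.20), SAUR72 (21.1 ± 5.88) and SAUR36 (20.5 ± 5.07 CPM per kb) came next, and these 5 did not differ from one another, neighbour by neighbour, by more than their SD, while SAUR32 stood above them. Of the tandem genes, SAUR4 and SAUR5 alone were in the first 9 places before auxin.

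After the filter on low counts, 33 members could be tested in the shy2-2 line and 29 in the slr-1 line. SAUR61, SAUR3, SAUR12 and SAUR71 were too low in both, and SAUR19, SAUR22, SAUR23 and SAUR13 passed in the shy2-2 line alone. A weak gene that passed only through the groups in which it was high had to differ, so the counts below describe the members tested and carry no weight as a score. One symbol, SAUR68, is attached to both AT1G29490 and AT1G29510 in RefSeq, so these are called by locus.

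The first comparison asked how the members responded to auxin without DEX. After 1 h of IAA in DMSO, 16 members rose and 5 fell of 33 tested in the shy2-2 line, where 15.8% of all 21902 genes rose and 13.2% fell. The slr-1 line had 12 up and 7 down of 29, where 15.8% of all 21864 genes rose and 11.4% fell. The median log2 fold change at 1 h was 2.61 over the members tested in the shy2-2 line, or 2.20 with the 4 members that had no count at 0 h set to their lower bound, and the median over all genes was -0.00462. The slr-1 median over 29 members was 1.06, also with 1 member at its bound, against 0.0126 over all genes. The medians cover different sets of members and include genes without a count at 0 h, which had to differ to be tested. Like the counts, they carry no weight as a score. In these bulk samples, fewer cells of a type and less RNA per cell cannot be told apart. By 2 h, 20 members were up and 4 down in the shy2-2 line (all genes 15.8% and 11.6%), against 17 up and 5 down in the slr-1 line (19.4% and 13.9%). For 4 h the shy2-2 line gave 15 up and 5 down (24.5% and 17.4%), and the slr-1 line 12 up and 7 down (28.2% and 24.2%). For 6 h these were 19 up and 4 down (26.3% and 20%) in the former and 13 up and 7 down (29.2% and 25.3%) in the latter.

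No member was called in opposite directions in the lines at any time. Of the 29 members tested in both, those that rose in both lines numbered 12, 17, 12 and 13 at 1, 2, 4 and 6 h, and those that fell in both 5, 4, 5 and 4. Of all 21588 genes tested in both lines, 12.5%, 13.5%, 21.8% and 21.6% rose in both at these times and 8.76%, 9.34%, 16.1% and 17.1% fell. Over the 8 combinations of line and time, 9 members rose in all and 4 fell in all (all genes 6.28% and 4.42%). At least 1 rise and no fall was called for 23 members, and at least 1 fall and no rise for 7 (39.8% and 32.6% of the 22178 genes tested in either line). SAUR77 was called in both directions, and 2 members tested were not called at any time. Fewer members rose at 2 h when the libraries high in photosynthetic RNA were left out, which also left fewer libraries in the 2 h groups. Without the 7 libraries, 12 members rose and 5 fell at 2 h in the shy2-2 line and 10 rose and 5 fell in the slr-1 line, while the counts at 1, 4 and 6 h moved by at most 1 in each direction.

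**Figure D2:**
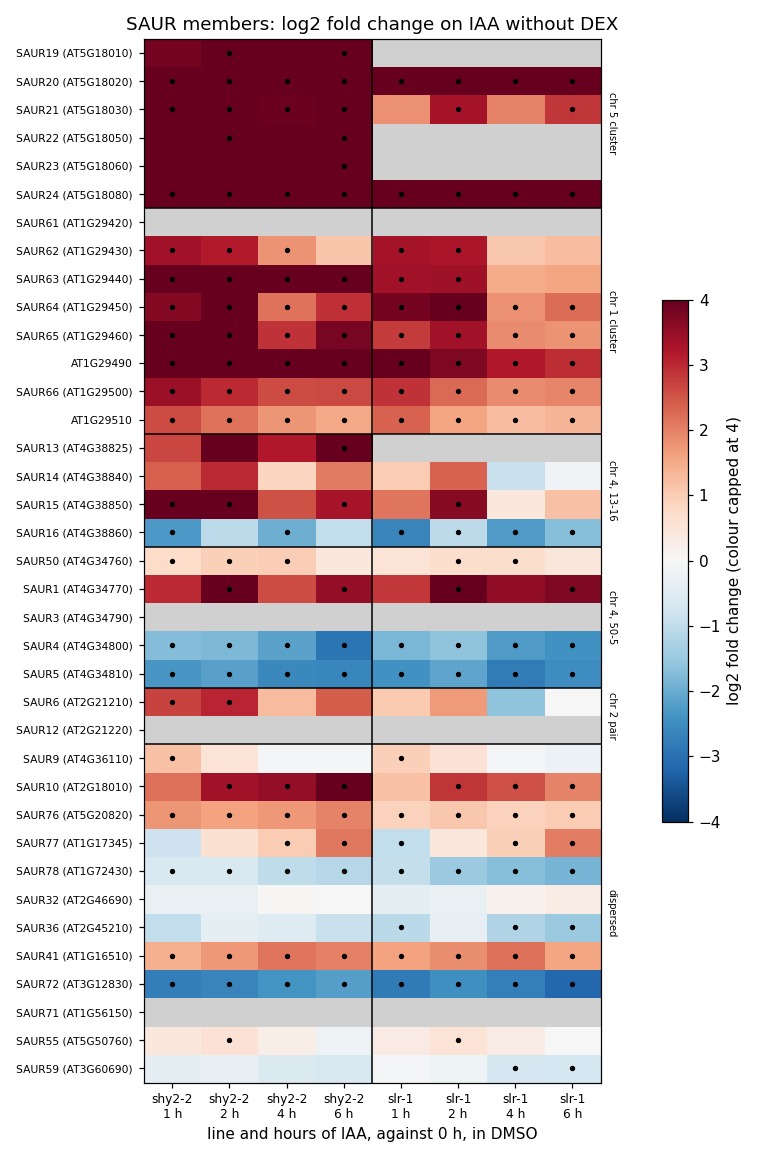
Log2 fold change of the 37 members against 0 h of IAA in DMSO, by line and hours (columns), with members in rows grouped by tandem cluster; red is higher, blue lower, colours stop at 4, grey is not tested, and a dot marks adjusted p under 0.05. The chromosome 1 cluster is red with dots in all 7 tested rows at 1 and 2 h in both lines, while SAUR4, SAUR5, SAUR72 and SAUR78 are blue with dots in all 8 columns.

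The chromosome 5 cluster holds SAUR19 to SAUR24, the genes in which the inhibition of PP2C.D phosphatases by SAUR proteins was worked out. It spans chr5:5962773-5984308 of the TAIR10.1 assembly, and each of the 6 genes is 1 exon. Their coding sequences are 87.7 to 95.2% identical in pairs (median 91.2%). The first 120 coding bases are shown because they show how little separates genes that differed widely in level; capitals mark the positions of the alignment at which the 6 are not all the same, and SAUR21 lacks a few of the bases the others have (sequences from RefSeq, TAIR10.1).
SAUR19: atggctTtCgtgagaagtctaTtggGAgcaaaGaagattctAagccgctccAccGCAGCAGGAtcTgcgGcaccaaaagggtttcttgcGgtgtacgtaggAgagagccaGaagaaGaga
SAUR20: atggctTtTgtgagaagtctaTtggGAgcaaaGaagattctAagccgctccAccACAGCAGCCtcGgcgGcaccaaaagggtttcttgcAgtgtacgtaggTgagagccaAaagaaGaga
SAUR21: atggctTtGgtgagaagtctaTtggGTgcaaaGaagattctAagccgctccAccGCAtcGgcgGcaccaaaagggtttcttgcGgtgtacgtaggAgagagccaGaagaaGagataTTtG
SAUR22: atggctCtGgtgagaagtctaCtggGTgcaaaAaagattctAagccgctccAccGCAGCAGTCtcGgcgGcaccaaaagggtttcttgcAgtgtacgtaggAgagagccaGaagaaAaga
SAUR23: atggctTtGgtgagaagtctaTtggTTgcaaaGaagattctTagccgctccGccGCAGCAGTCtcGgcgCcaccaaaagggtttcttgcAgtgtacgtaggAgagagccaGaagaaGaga
SAUR24: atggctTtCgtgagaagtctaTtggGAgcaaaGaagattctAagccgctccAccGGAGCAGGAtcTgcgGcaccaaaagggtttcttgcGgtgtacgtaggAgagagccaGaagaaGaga
The submitters' counts keep reads with several matches in a row of their own. Of all 50-base windows of each transcript, 92.9% occur once in the genome for SAUR24, 94.2% for SAUR20 and 81.5% for SAUR19, and reads from the rest are not in these values, so the levels of this cluster are less certain than those of single genes.

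SAUR24 (AT5G18080) carried most of the counts of this cluster. Its level in the 3 shy2-2 DMSO libraries was 0.0796, 0.108 and 0.0409 CPM at 0 h and 3.56, 2.95 and 4.17 CPM at 1 h. Every auxin library lay far above every 0 h library, and the log2 fold change was 5.47 ± 0.37 (SE) (edgeR's quasi-likelihood test, adjusted p = 6.79e-11). Its slr-1 values were 0.0863, 0.0515 and 0.161 CPM before and 2.93, 4.62 and 3.28 CPM after 1 h, again without overlap, with a log2 fold change of 5.07 ± 0.33 (SE) (adjusted p = 1.55e-11). At 4 and 6 h it was still called above 0 h, and the 6 h mean was 1.78 ± 0.582 CPM in the shy2-2 line and 1.91 ± 0.183 CPM in the slr-1 line (SD, n = 3).

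The other 5 genes of the cluster reached at most 1.86 CPM in any library. SAUR20 (AT5G18020) had no count in the 3 DMSO libraries of either line at 0 h and 0.354, 0.121 and 0.582 CPM at 1 h in the shy2-2 line, at least 17.4-fold higher when 3 counts over the 0 h group are taken as its floor (adjusted p = 0.00269). Its slr-1 libraries reached 0.311, 0.151 and 0.185 CPM at 1 h, at least 6.87-fold higher. SAUR21 went from 3 counts to 67 over the 3 shy2-2 libraries, a ratio of 27.7 (95% interval 9.08 to 138, counting error only), and its 1 h call was lost without replicate 3 of that group. SAUR19, SAUR22 and SAUR23 were at 0 in all 6 DMSO libraries at 0 h. At 6 h in the shy2-2 line they were called higher, by at least 14.3-fold, 8.38-fold and 11.8-fold, and the SAUR22 call was lost when 1 of 4 libraries was left out. SAUR20 and these genes, without a count at 0 h in DMSO, passed the filter on low counts only through groups in which they were higher. Their difference from 0 h was therefore built in, and their calls carry no weight as support. All 5 correlated within groups with the photosynthesis genes at r of at least 0.618, and the part of the latter in these results was not tested. SAUR21 was not called at 1 h in the slr-1 line.

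The chromosome 1 cluster, SAUR61 to AT1G29510 at chr1:10301377-10323239, rose together. All 7 members tested rose at 1 h and at 2 h in both lines; SAUR61 was too low to test. At 6 h, 6 of 7 remained above 0 h in the shy2-2 line and 5 of 7 in the slr-1 line. SAUR63 (AT1G29440), known to promote elongation of the hypocotyl and stamen filament when its protein is stabilised, had 1 count in 3 libraries at 0 h in the shy2-2 line and 0.944, 0.604 and 1.01 CPM at 1 h, a ratio of 131 (95% interval 23.1 to 5240, counting error only). Its level in the slr-1 line was 0, 0.103 and 0.0918 CPM at 0 h and 1.12, 0.803 and 0.686 CPM at 1 h, with a log2 fold change of 3.36 ± 0.71 (SE) (adjusted p = 0.000764). No library of 1 h overlapped those of 0 h in either line.

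AT1G29490 had 3 counts at 0 h and 219 at 1 h over the 3 shy2-2 DMSO libraries, a ratio of 90.5 (95% interval 30.6 to 442). At 1 h it stood at 1.77, 1.47 and 2.08 CPM in the shy2-2 line and 2.58, 3.84 and 2.98 CPM in the slr-1 line, where 0 h gave 0, 0.103 and 0.207 CPM. Neither line showed overlap between 0 h and 1 h. SAUR65 was at 0.0597, 0.01800 and 0.102 CPM at 0 h and 1.02, 0.483 and 1.69 CPM at 1 h in the shy2-2 line (log2 fold change 4.10 ± 0.67 (SE), adjusted p = 3.91e-05), and its slr-1 value was 2.80 ± 0.61 (SE). SAUR62, at 3.34 and 3.33, and SAUR64, at 3.67 and 3.84 on the log2 scale, also rose at 1 h in both lines. SAUR62 is known in Arabidopsis for a role in pollen tube growth.

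SAUR66 (AT1G29500) and AT1G29510 had the highest levels of the cluster, and SAUR66 is described for its level, a choice made after its values were seen. SAUR66 in the shy2-2 line was at 1.05, 1.48 and 1.27 CPM at 0 h and 14.8, 12.8 and 13.02 CPM at 1 h, and in the slr-1 line at 1.899, 1.96 and 1.93 CPM and 13.2, 16.01 and 13.2 CPM. The replicates were tight against the size of the change, and the log2 fold changes were 3.42 ± 0.18 (SE) and 2.88 ± 0.19 (SE) (adjusted p = 9.88e-13 and 1.49e-11). Its mean was lower at 4 and 6 h than at 1 h, at 7.77 ± 1.03 CPM and 7.56 ± 1.38 CPM at 6 h. AT1G29510 went from 1.14 ± 0.255 to 6.96 ± 0.277 CPM at 1 h in the shy2-2 line and from 1.68 ± 0.327 to 8.56 ± 1.27 CPM in the slr-1 line. Of its 50-base windows 66.2% are unique, and SAUR62 and SAUR63 had 76.8% and 72.9%, so the levels of these 3 are uncertain for the same reason.

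In the chromosome 4 cluster of SAUR13 to SAUR16 (chr4:18121526-18131284) neighbours moved in opposite directions. SAUR15 (AT4G38850), the first SAUR gene cloned from Arabidopsis, was at 0, 0.126 and 0.0818 CPM at 0 h and 1.36, 0.266 and 1.93 CPM at 1 h in the shy2-2 line (log2 fold change 4.01 ± 1.11 (SE), adjusted p = 0.00786). The groups did not overlap, but the 3 libraries at 1 h ranged widely, in the order of their photosynthesis means (5.27, 3.62 and 5.48 as log2(CPM + 1)). These are under 6, so leaving out the 7 libraries keeps all 3, and the part of photosynthetic RNA in this rise was not tested. In the slr-1 line it was called at 2 h, at 2.69, 0.232 and 1.26 CPM, where replicates 1 and 3 are libraries high in photosynthetic RNA; without the 7 libraries the call was lost. SAUR16 (AT4G38860), the gene beside it, was at 2.49, 2.09 and 2.701 CPM at 0 h and 0.315, 0.266 and 0.919 CPM at 1 h in the shy2-2 line. It fell in both lines at 1 h, with log2 fold changes of -2.31 ± 0.56 (SE) and -2.66 ± 0.41 (SE) (adjusted p = 0.00278 and 1.7e-05), and again at 4 h. SAUR14 was not called in either line. Its 1 h values in the shy2-2 line were 1.55, 0.0242 and 2.54 CPM, and they overlapped those at 0 h.

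The chromosome 4 cluster of SAUR50, SAUR1, SAUR3, SAUR4 and SAUR5 (chr4:16582183-16599568) held the tandem genes that fell most plainly. SAUR5 (AT4G34810) was at 8.48, 13.2 and 18.5 CPM at 0 h and 2.67, 2.27 and 3.06 CPM at 1 h in the shy2-2 line, and at 9.58, 16.4 and 15.01 CPM and 2.803, 1.98 and 2.78 CPM in the slr-1 line. All 12 values split by time with no overlap, and SAUR5 fell, with log2 fold changes of -2.32 ± 0.26 (SE) and -2.43 ± 0.29 (SE) (adjusted p = 2.6e-07 and 5.7e-07). SAUR4 (AT4G34800) fell from 7.96, 11.1 and 18.03 CPM to 3.598, 3.46 and 4.11 CPM in the shy2-2 line, also without overlap, with log2 fold changes of -1.72 ± 0.31 (SE) and -1.84 ± 0.25 (SE) in the lines. Both were lower than at 0 h at all 4 times in both lines.

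SAUR50 (AT4G34760), which in Arabidopsis takes part in the light response of cotyledons and also binds PP2C.D phosphatases, rose slightly in the same cluster. Its shy2-2 values were 2.37, 3.73 and 2.46 CPM at 0 h and 5.56, 3.62 and 5.05 CPM at 1 h, which overlapped, and the 1 h call (log2 fold change 0.74 ± 0.27 (SE), adjusted p = 0.0465) was lost when any 1 of 4 of these libraries was left out. SAUR1 was called at 2 h and 6 h in both lines, but its 2 h values in the shy2-2 line, 0.0706, 1.75 and 0.0406 CPM, stood apart through the library high in photosynthetic RNA, and its 2 h calls in both lines were lost without those libraries. Its 6 h calls were lost when any 1 of 5 libraries was left out in the shy2-2 line and any 1 of 4 in the slr-1 line. SAUR3 was too low to test. In the chromosome 2 pair (chr2:9084628-9090052), SAUR12 was too low to test. SAUR6 (AT2G21210) stood at 0.0796, 0 and 0.0614 CPM at 0 h and 0.491, 0.242 and 0.184 CPM at 1 h in the shy2-2 line (log2 fold change 2.69 ± 1.00 (SE), adjusted p = 0.0468), a call lost when any 1 of 5 libraries was left out, and it was not called in the slr-1 line.

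**Figure D3:**
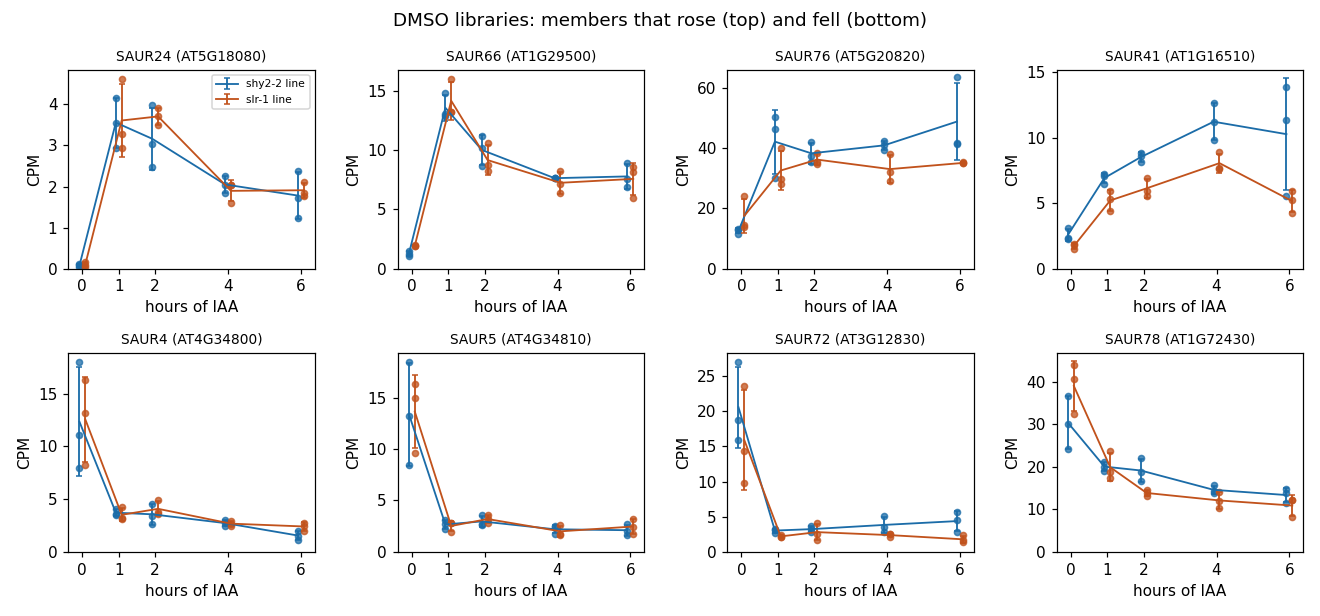
Level (y axis, CPM) of 4 members that rose (top row) and 4 that fell (bottom row) on IAA in DMSO over 0 to 6 h (x axis); points are libraries, lines join group means and bars are the SD of 3 libraries, blue for the shy2-2 line and orange for the slr-1 line. SAUR24 and SAUR66 were highest at 1 or 2 h, SAUR76 stayed near its 1 h level, and SAUR4, SAUR5 and SAUR72 had fallen by 1 h.

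Among the dispersed members, SAUR72 (AT3G12830) fell most. It belongs to the same subfamily as SAUR41, SAUR71 and SAUR40. Its shy2-2 values were 18.7, 15.97 and 27.01 CPM at 0 h and 2.71, 3.26 and 3.12 CPM at 1 h, and those of the slr-1 line 23.6, 14.3 and 9.76 CPM and 2.35, 2.16 and 2.11 CPM. The 0 h libraries varied in the slr-1 line, yet the lowest lay above every 1 h value. The log2 fold changes were -2.75 ± 0.29 (SE) and -2.82 ± 0.28 (SE) (adjusted p = 9.91e-08 and 2.27e-08).

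SAUR76 (AT5G20820), SAUR77 (AT1G17345) and SAUR78 (AT1G72430) form a group whose proteins are known to bind ethylene receptors in Arabidopsis, and the 3 genes followed different courses. SAUR76 rose from 12.8, 13.2 and 11.6 CPM at 0 h to 50.2, 46.2 and 30.1 CPM at 1 h in the shy2-2 line (log2 fold change 1.75 ± 0.21 (SE)) and from 23.99, 13.9 and 14.6 CPM to 28.1, 39.95 and 29.6 CPM in the slr-1 line (0.93 ± 0.16 (SE)), with no overlap in either. It was above 0 h at all 4 times. SAUR78 fell from 24.3, 36.7 and 30.2 CPM to 20.03, 19.1 and 21.1 CPM at 1 h in the shy2-2 line, and its mean went on down to 13.4 ± 1.67 CPM at 6 h (log2 fold change -1.15 ± 0.13 (SE), adjusted p = 1.67e-07). Its level fell in the slr-1 line too, with log2 fold changes of -0.95 at 1 h and -1.85 at 6 h.

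SAUR77 was the late member of the 3. In the slr-1 line it was lower at 1 h, at 1.39, 1.08 and 1.39 CPM against 2.33, 2.57 and 2.71 CPM at 0 h (log2 fold change -0.97 ± 0.31 (SE), adjusted p = 0.0204), a call lost without replicate 3 of 0 h or replicate 2 of 1 h. At 6 h it was at 11.8, 13.3 and 7.25 CPM in the slr-1 line and 13.8, 12.9 and 7.65 CPM in the shy2-2 line, above every 0 h library of its line. The log2 fold changes at 6 h against 0 h were 2.06 ± 0.30 (SE) and 2.10 ± 0.37 (SE) (adjusted p = 3.58e-06 and 6.47e-05).

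SAUR41 (AT1G16510), known from the endodermis and from cell expansion, rose at all times in both lines. Its values in the shy2-2 line were 2.37, 2.29 and 3.09 CPM at 0 h and 7.04, 7.25 and 6.46 CPM at 1 h, without overlap, and the log2 fold changes were 1.43 ± 0.27 (SE) and 1.62 ± 0.18 (SE) in the lines. SAUR9, whose protein inhibits a PP2C.D phosphatase, was called at 1 h in both lines, at 2.52, 1.98 and 2.45 CPM against 0.697, 1.03 and 1.37 CPM in the shy2-2 line (log2 fold change 1.17 ± 0.34 (SE), adjusted p = 0.0118), and was not called at 2, 4 or 6 h in either. Leaving out replicate 1 of 0 h ended the shy2-2 call, and leaving out replicate 3 of 0 h or replicate 2 of 1 h ended the slr-1 call. SAUR10 was called higher at 2, 4 and 6 h in both lines and reached at most 1.34 CPM. Its 2 h calls in both lines were lost without the libraries high in photosynthetic RNA, and its slr-1 call at 6 h when any 1 of 3 libraries was left out. SAUR36 (AT2G45210), known for a role in leaf senescence, was called lower at 1, 4 and 6 h in the slr-1 line, where 1 h gave 11.3, 6.55 and 7.06 CPM against 18.99, 17.4 and 16.6 CPM (-1.07 ± 0.32 (SE), adjusted p = 0.0133), and was not called in the shy2-2 line. The 1 h call was lost without replicate 2 or 3 of 1 h. SAUR55 and SAUR59 moved by less than 1 on the log2 scale, and SAUR32 was not called against 0 h in DMSO.

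The 250 bases before the annotated transcript start of each member were searched on both strands for the auxin response element TGTCTC, to which ARF factors bind. It was present in 6 of 37 members (16.2%) and in 10.95% of 27443 promoters of the genome. Its wider core, TGTC followed by any pair of bases, overlaps it and was in 31 of 37 members (83.8%) and in 74.5% of all promoters. The variant TGTCGG was found in 1 member (2.70%, all promoters 4.16%), and so was the G-box CACGTG (2.70%, all promoters 6.49%). The promoters of 3 members that rose and 2 that fell are shown, with the auxin response element on either strand in capitals (RefSeq, TAIR10.1, read toward the gene).
SAUR66 (chr1:10320761-10321010, plus strand), which rose: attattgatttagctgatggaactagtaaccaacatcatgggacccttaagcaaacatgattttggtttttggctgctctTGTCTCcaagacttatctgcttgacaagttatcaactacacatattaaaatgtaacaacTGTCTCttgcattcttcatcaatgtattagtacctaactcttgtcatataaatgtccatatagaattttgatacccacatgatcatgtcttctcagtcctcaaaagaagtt
AT1G29510 (chr1:10322173-10322422, plus strand), which rose: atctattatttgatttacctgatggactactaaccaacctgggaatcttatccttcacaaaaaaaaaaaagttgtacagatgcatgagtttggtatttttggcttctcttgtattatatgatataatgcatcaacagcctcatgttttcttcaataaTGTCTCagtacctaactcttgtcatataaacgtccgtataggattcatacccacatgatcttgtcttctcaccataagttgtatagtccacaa
SAUR24 (chr5:5983433-5983682, plus strand), which rose: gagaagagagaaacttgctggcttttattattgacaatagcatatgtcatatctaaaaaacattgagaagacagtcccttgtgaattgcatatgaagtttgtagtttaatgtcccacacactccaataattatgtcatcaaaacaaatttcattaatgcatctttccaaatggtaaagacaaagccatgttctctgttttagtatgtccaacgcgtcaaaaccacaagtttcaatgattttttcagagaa
SAUR5 (chr4:16598708-16598957, plus strand), which fell: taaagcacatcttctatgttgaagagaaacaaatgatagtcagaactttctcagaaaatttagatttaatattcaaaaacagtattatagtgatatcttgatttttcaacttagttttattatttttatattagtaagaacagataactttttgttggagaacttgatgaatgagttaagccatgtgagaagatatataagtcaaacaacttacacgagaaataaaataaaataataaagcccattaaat
SAUR72 (chr3:4079628-4079877, minus strand), which fell: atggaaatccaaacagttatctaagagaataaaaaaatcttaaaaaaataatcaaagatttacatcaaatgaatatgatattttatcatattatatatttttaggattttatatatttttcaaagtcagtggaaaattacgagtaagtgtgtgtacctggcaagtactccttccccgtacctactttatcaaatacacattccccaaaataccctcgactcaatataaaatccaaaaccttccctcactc
SAUR66 holds the element at 170 and 111 bases before the start and AT1G29510 at 93. SAUR24, which also rose, holds none within this window and 7 matches to the wider core. SAUR5 and SAUR72 hold neither. Of the 6 members without the core in this window, SAUR5, SAUR16, SAUR72 and SAUR78 fell at 1 h in both lines, SAUR76 rose in both and SAUR3 was too low to test, while SAUR4, which also fell, holds it. A match is a description of the letters, and no match says nothing about the factors.

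The next comparison asked whether levels at 6 h had moved from those at 2 h in DMSO. For the slr-1 line 2 members were higher and 12 lower at 6 h, where 16.3% of all genes were higher and 17.1% lower. For the shy2-2 line 1 was higher and 6 were lower (all genes 13% and 11.3%). All 4 DMSO groups used here came from 1 run per line. SAUR77 was higher at 6 h in both lines, by 1.48 ± 0.36 (SE) and 1.61 ± 0.29 (SE) on the log2 scale (adjusted p = 0.00429 and 0.000157). Lower in both lines were SAUR24 (-0.83 and -0.97), SAUR62 (-2.08 and -2.03), SAUR4 (-1.14 and -0.78) and SAUR55 (-0.79 and -0.54). Within the chromosome 1 cluster 5 of 7 members were lower at 6 h in the slr-1 line and 2 of 7 in the shy2-2 line. The 2 h groups hold 3 of the 7 libraries high in photosynthetic RNA; without the 7 libraries 1 member was higher and 3 were lower in the slr-1 line and 2 were higher and 4 lower in the shy2-2 line, and the calls for SAUR62 in both lines and for SAUR24 in the shy2-2 line were lost.

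Under DEX many members still rose or fell at 1 h of IAA, while the numbers at 4 and 6 h in the shy2-2 line were near the shares of all genes. At 1 h of IAA, 12 rose and 5 fell of 33 in the shy2-2 line (all genes 15.4% and 11.5%), and 11 rose and 5 fell of 29 in the slr-1 line (13% and 11.1%). Later counts in the shy2-2 line were 9 up and 4 down at 2 h (12.9% and 8.46%), 6 up and 4 down at 4 h (15.1% and 11.1%) and 6 up and 6 down at 6 h (18.7% and 17%). Those of the slr-1 line were 10 up and 6 down at 2 h (13.1% and 10.2%), 9 up and 5 down at 4 h (17.8% and 16.3%) and 10 up and 5 down at 6 h (18% and 18.5%). The DEX 0 h groups hold 3 of the 7 libraries high in photosynthetic RNA, 2 of them in the slr-1 line. Without the 7 libraries, the rises in the shy2-2 line numbered 11, 10, 6 and 6 in order of time and the falls 4, 4, 3 and 4. The slr-1 line then had 10, 10, 8 and 7 rises and 5, 4, 4 and 4 falls. Calls lost in this way were those of SAUR78 and SAUR55 at 1 h, SAUR72 at 4 h and SAUR9 and SAUR16 at 6 h in the shy2-2 line. The slr-1 calls lost were those of SAUR9 at 1 h, SAUR64 and SAUR32 at 2 h, SAUR65 and SAUR50 at 4 h, SAUR77, SAUR64 and SAUR65 at 6 h, and SAUR16 at 2, 4 and 6 h. The chromosome 1 cluster again rose in all 7 tested members at 1 h in both lines, and SAUR62 in the shy2-2 line and SAUR63 in the slr-1 line each lost the call when any 1 of 4 libraries was left out. SAUR66 was at 1.605, 1.51 and 1.73 CPM at 0 h and 13.6, 15.99 and 13.4 CPM at 1 h in the shy2-2 line (3.15 ± 0.18 (SE)), and SAUR24 at 0.195, 0.1396 and 0.0444 CPM and 3.87, 3.29 and 4.51 CPM (4.90 ± 0.38 (SE)). No 1 h library overlapped one of 0 h. SAUR5 and SAUR4 fell in the same line under DEX, with log2 fold changes of -2.10 ± 0.26 (SE) and -1.27 ± 0.31 (SE).

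DEX and DMSO were then compared directly, to ask whether levels differed at each time once DEX had released the repressor. At 0, 1 and 2 h no member was called in either line, where 0%, 0.219% and 0.594% of all genes were called in the shy2-2 line and 0.0229%, 0.585% and 1.57% in the slr-1 line. Without adjustment, 1, 2 and 1 members had p under 0.05 in the shy2-2 line and 2, 1 and 5 in the slr-1 line, where 3.32%, 3.65% and 7.33% of all genes did in the former and 5.86%, 5.29% and 9.6% in the latter, and DESeq2 called 0 at each of these times. For members with more counts the intervals bound what could have been missed in the average over all cells of the sample. They do not bound a change confined to the cells in which the GATA23 promoter is active. At 1 h, where the DEX and DMSO libraries of the shy2-2 line shared a run, the 95% interval of the log2 difference was -0.26 to 0.40 for SAUR66, -0.43 to 0.68 for SAUR24 and -0.53 to 0.56 for SAUR5. Members with few counts were not bounded so closely. In the same libraries SAUR22 had 3 counts under DEX and 12 in DMSO (ratio 0.244, 95% interval 0.0441 to 0.903, counting error only), and SAUR19 had 12 and 5. At all other points DEX and the sequencing run cannot be told apart.

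At 4 and 6 h a few members differed, and at 6 h the called shares were below those of all genes. Most of those called were dispersed genes, which also hold most of the members with high levels. The calls are therefore no contrast between dispersed and tandem genes. At 4 h 2 members were higher and 0 lower under DEX in the shy2-2 line (all genes 2.47% and 8.38%), and 3 were higher and 1 lower in the slr-1 line (5.83% and 12%). At 6 h the counts were 1 higher and 1 lower (8.53% and 13.9%) and 3 higher and 1 lower (12.3% and 16.9%). The only tandem member called was AT1G29510, higher under DEX at 6 h in the shy2-2 line, at 5.42, 3.64 and 5.21 CPM against 2.64, 3.27 and 3.54 CPM (0.56 ± 0.18 (SE), adjusted p = 0.0263). The groups did not overlap, and the call was lost without replicate 1 or 3 of DEX or replicate 1 of DMSO.

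SAUR72, which was lower at 1 to 6 h of IAA than at 0 h in DMSO, was higher under DEX. In the slr-1 line it was at 5.28, 6.17 and 7.86 CPM under DEX and 2.18, 2.48 and 2.505 CPM in DMSO at 4 h, and at 5.54, 6.31 and 5.03 CPM and 1.63, 1.35 and 2.39 CPM at 6 h. The groups were apart at both times, and the log2 differences were 1.45 ± 0.27 (SE) and 1.66 ± 0.27 (SE) (adjusted p = 0.000313 and 4.59e-05). Both calls held in every alternative analysis, but DEX and the sequencing run cannot be told apart in them. In the shy2-2 line it was at 10.2, 5.52 and 9.55 CPM and 5.15, 2.84 and 3.52 CPM at 4 h (1.10 ± 0.28 (SE), adjusted p = 0.0105). That call was lost without replicate 1 or 3 of DEX or replicate 2 of DMSO, and without the libraries high in photosynthetic RNA (log2 difference 1.02, adjusted p = 0.0577). At 6 h the shy2-2 difference was 0.21 ± 0.28 (SE) (adjusted p = 0.654).

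SAUR36 was higher under DEX in the slr-1 line, at 23.7, 14.2 and 19.1 CPM against 5.01, 9.19 and 9.08 CPM at 4 h and 24.2, 22.1 and 18.2 CPM against 4.69, 4.86 and 9.32 CPM at 6 h. No DEX library overlapped a DMSO library, and the log2 differences of 1.31 ± 0.32 (SE) and 1.78 ± 0.32 (SE) (adjusted p = 0.00444 and 0.000143) held in every alternative. The shy2-2 values at 6 h, 26.3, 17.4 and 28.96 CPM under DEX and 21.1, 5.53 and 11.6 CPM in DMSO, overlapped, and the log2 difference was 0.91 ± 0.41 (SE) (adjusted p = 0.117). SAUR77, the late riser, was lower under DEX at 6 h in both lines. In the slr-1 line it was at 3.98, 3.76 and 4.54 CPM under DEX and 11.8, 13.3 and 7.25 CPM in DMSO (-1.38 ± 0.29 (SE), adjusted p = 0.000597), with no overlap and with the call held in every alternative. In the shy2-2 line it was at 5.02, 7.17 and 4.99 CPM and 13.8, 12.9 and 7.65 CPM (-1.03 ± 0.36 (SE), adjusted p = 0.0423), and leaving out replicate 1 or 3 of DEX or replicate 1 or 2 of DMSO ended the call.

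The remaining calls were smaller. SAUR78 was higher under DEX at 4 h in the shy2-2 line, at 19.9, 20.9 and 19.1 CPM against 13.8, 15.6 and 14.4 CPM (0.43 ± 0.13 (SE), adjusted p = 0.0321), with no overlap, and in the slr-1 line at 14.01, 20.1 and 17.1 CPM against 14.2, 10.2 and 11.96 CPM, which overlapped (0.52 ± 0.17 (SE), adjusted p = 0.0358). The first was lost when any 1 of 5 of its 6 libraries was left out and the second when any 1 of 4 was. SAUR59 was higher at 6 h in the slr-1 line, at 18.8, 15.8 and 13.1 CPM against 5.79, 7.33 and 12.9 CPM (0.88 ± 0.24 (SE), adjusted p = 0.00657), and the lowest DEX value was just above the highest DMSO value. SAUR32 was lower at 4 h in the slr-1 line, at 74.4, 62.8 and 61.6 CPM against 87.9, 123.6 and 80.5 CPM (-0.54 ± 0.18 (SE), adjusted p = 0.0384), a call lost without replicate 2 or 3 of DEX or replicate 2 of DMSO. With only the groups compared in the fit, the slr-1 calls of SAUR59, SAUR32 and SAUR78 were lost. The same fit ended the shy2-2 calls of SAUR72 at 4 h and of AT1G29510 and SAUR77 at 6 h. Without the filter on low counts that of SAUR77 was lost too.

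**Figure D4:**
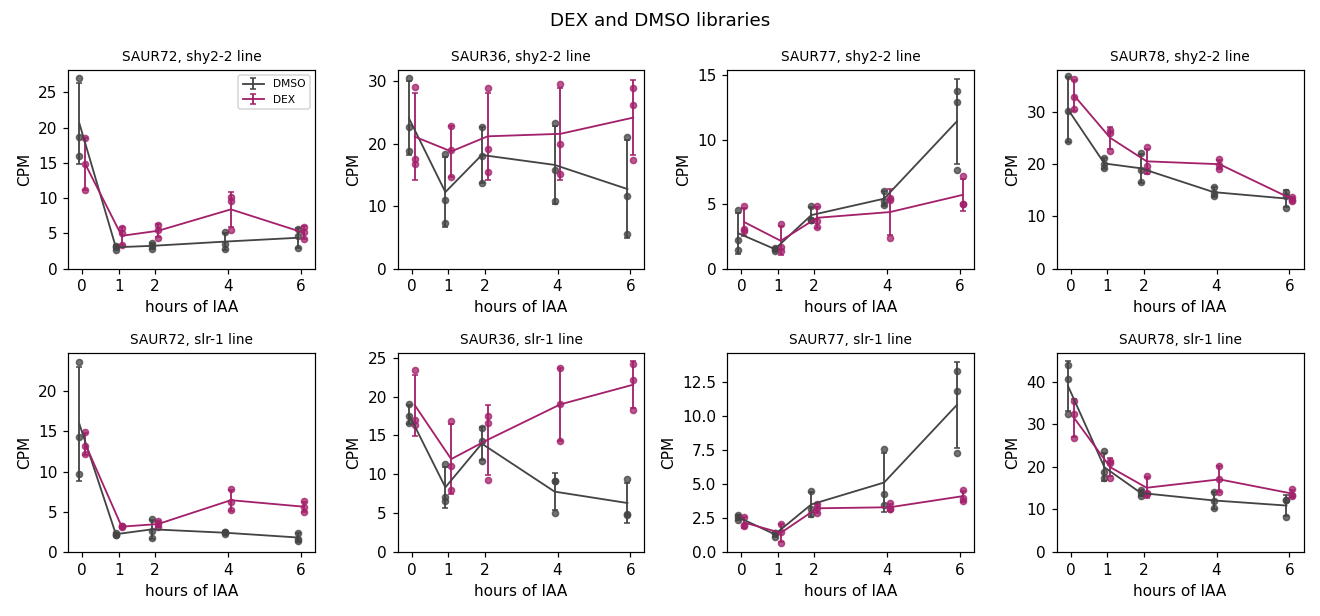
Level (y axis, CPM) of SAUR72, SAUR36, SAUR77 and SAUR78 over 0 to 6 h of IAA (x axis) in DMSO (grey) and DEX (magenta), with the shy2-2 line above and the slr-1 line below; points are libraries, lines join group means and bars are the SD of 3 libraries. In the lower row, the DEX and DMSO libraries of SAUR72 and SAUR36 are apart at 4 and 6 h and those of SAUR77 at 6 h.

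The effect of DEX on the response to IAA was then tested. The mean of 2, 4 and 6 h against 0 h under DEX was taken, less the same in DMSO. A difference between runs of equal size at all times cancels in it for the shy2-2 line. In the slr-1 line 0 h and the later times came from different runs, so the change and the run cannot be told apart there. In the shy2-2 line 1 member was higher and 0 lower (all genes 0.936% and 3.68%), SAUR72 at 1.15 ± 0.32 (SE) (adjusted p = 0.0373). For the slr-1 line 3 were higher and 0 lower (3.29% and 7.94%): SAUR72 at 1.35 ± 0.30 (SE) (adjusted p = 0.00371), SAUR78 at 0.62 ± 0.19 (SE) (adjusted p = 0.0391) and SAUR76 at 0.60 ± 0.18 (SE) (adjusted p = 0.0358). All 4 calls were lost without the 7 libraries high in photosynthetic RNA, 3 of which are DEX 0 h libraries. SAUR72 then gave 1.16 in the shy2-2 line (adjusted p = 0.136) and 1.21 in the slr-1 line. SAUR78 and SAUR76 then gave 0.46 and 0.69 in the slr-1 line. Only replicate 3 of DEX 0 h and replicate 2 of DMSO 2 h then remained in the slr-1 line, so its calls can be lost through fewer libraries alone. Leaving out 1 library ended the shy2-2 call in 9 fits and the slr-1 calls of SAUR78 and SAUR76 in 4 each. Before adjustment, 8 of 33 members had p under 0.05 in the shy2-2 line, 1 higher and 7 lower, where 4061 of 21902 genes did. The 7 were SAUR62, SAUR63, SAUR66, SAUR14, SAUR6, SAUR23 and SAUR77, and none was called. SAUR66 was at -0.50 (interval -0.93 to -0.07). All but SAUR66 and SAUR77 correlated with the photosynthesis genes at r above 0.5. For the slr-1 line 4 of 29 members had p under 0.05, 4 higher and 0 lower, where 5309 of 21864 genes did.

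Whether the lines differed was tested in 1 fit of all 60 libraries. No member of 33 was called at 1, 2, 4 or 6 h or in the change of the auxin response, where 0%, 0.00449%, 0.144%, 0.184% and 0.00898% of all 22268 genes were called. Without adjustment 0, 0, 0, 3 and 1 members had p under 0.05, where 0.728%, 1.28%, 2.68%, 8.35% and 2.59% of all genes did, and DESeq2 called 0 in each. At 6 h the DEX effect on SAUR72 was -1.41 ± 0.40 (SE) in the shy2-2 line less the slr-1 line on the log2 scale (95% interval -2.22 to -0.60, adjusted p = 0.165). For SAUR36 the difference was -0.83 ± 0.53 (SE) (interval -1.89 to 0.24), and for SAUR77 it was 0.40 ± 0.47 (SE) (interval -0.55 to 1.34). The other members whose interval left out 0 at 6 h were SAUR10, at -2.01 ± 0.88 (SE) (interval -3.79 to -0.23), and AT1G29510, with the opposite sign, at 0.60 ± 0.24 (SE) (interval 0.11 to 1.10). In the change of the response SAUR78 did so, at -0.56 ± 0.25 (SE) (interval -1.07 to -0.06). The intervals are not adjusted for the number of genes, so a difference between the lines is neither shown nor bounded closely.

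Of 40 other SAUR genes, 24 were tested in each line. At 1 h in DMSO 5 rose and 4 fell in the shy2-2 line and 8 rose and 3 fell in the slr-1 line, where 15.8% and 13.2% of all genes did so in the former and 15.8% and 11.4% in the latter. At 6 h the numbers were 6 and 7, and 5 and 9 (all genes 26.3% and 20%, and 29.2% and 25.3%). SAUR35 rose by 5.25 ± 0.25 (SE) and SAUR34 by 3.73 ± 0.24 (SE) on the log2 scale in the slr-1 line at 1 h and 6 h, and SAUR38 fell at 6 h (-2.95 ± 0.27 (SE)). SAUR45 rose by 1.88 ± 0.18 (SE) at 4 h. The 9 PP2C.D phosphatase genes, whose products SAUR proteins inhibit, were all tested: 6 rose and 1 fell at 1 h in the shy2-2 line and 7 rose and 1 fell in the slr-1 line, where the 1 h shares of all genes are those given above. APD7 rose by 1.94 ± 0.16 (SE) at 2 h and APD8 by 0.95 ± 0.08 (SE) at 1 h in the slr-1 line, AT3G12620 rose by 0.79 ± 0.10 (SE) at 6 h, and APD6 fell at 4 h (-0.58 ± 0.09 (SE)). The AHA proton pumps, the targets of these phosphatases, are also listed at 6 h: of 9 tested in the shy2-2 line 2 rose and 1 fell (all genes 26.3% and 20%), and of 10 in the slr-1 line 1 rose and 2 fell (29.2% and 25.3%). HA11 fell at 6 h in the shy2-2 line (-0.81 ± 0.12 (SE)), and HA3 was higher at 6 h than at 2 h in the slr-1 line (0.70 ± 0.13 (SE)).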

How the data were processed

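RNA of 60 pooled root samples (20 groups of 3) had been sequenced and, per the submitters' processing notes, mapped with STAR 2.5.2b to TAIR10, with DESeq2 used downstream. The deposited files hold raw counts per locus in several strand columns; column 4, which held 93.6 to 96.4% of the stranded counts, was used in every library. Rows that name no gene took 5.58 to 11.9% of a library, and the multimapping row 1.72 to 7.20%; both were left out of library sizes. How the strand of the kit was set is not given in the sources used here.

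Each line was fitted alone (30 libraries, 10 groups) with edgeR 4.0.16 in R 4.3.3: filterByExpr, TMM factors (0.945 to 1.049 over all fits) and the robust quasi-likelihood test, with 20 residual degrees of freedom. Another fit, of all 60 libraries (22268 genes), tested the lines against each other. P-values were adjusted by Benjamini-Hochberg over all genes tested, a gene with adjusted p under 0.05 was called, and SEs were derived from the fold change and its F. Intervals are 95%; those of count ratios cover counting error only. CPM values use library totals times TMM factors, and count floors the totals alone. The code was tested on simulated counts. Replicates differed by more than counting noise in every pair (chi-square per degree of freedom at least 15.48).

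Sequences and gene models came from RefSeq's TAIR10.1 copy of the assembly, whose name differs from the build the submitters give; the counts were matched by locus identifier. Coding sequences were aligned with MAFFT 7.526. Members with the largest called change in each cluster at 1 h were described in full (up to 3 a cluster, 6 for dispersed genes), with up to 4 genes from each other list by adjusted p. The members and lists were chosen with earlier results of these data known. Alternatives tried were DESeq2 1.42.0, other size factors, no filter, both strands, only the groups compared, a replicate block, each library left out, and the libraries high in photosynthetic RNA left out.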

Additional observations from a re-analysis of the deposited data

Results flagged for a closer look

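The auxin response of SAUR72 under DEX differed from that in DMSO by 1.15 on the log2 scale in the shy2-2 line. In the slr-1 line the difference was 1.35 for SAUR72, 0.62 for SAUR78 and 0.60 for SAUR76, and there it cannot be told apart from the sequencing run. These were picked out because the response under DEX differed from that in DMSO in a test of the difference itself, with edgeR's quasi-likelihood test, and all 4 were lost without the libraries high in photosynthetic RNA, whose part was not tested.

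Levels at 6 h that differed from those at 2 h in DMSO were picked out as a difference between time points. In the shy2-2 line SAUR77 was higher (1.48), and SAUR62 (-2.08), SAUR4 (-1.14), SAUR24 (-0.83), SAUR55 (-0.79), AT1G29510 (-0.66) and SAUR78 (-0.49) were lower, as log2 differences. In the slr-1 line SAUR77 (1.61) and SAUR32 (0.61) were higher. Lower there were SAUR14 (-2.52), SAUR15 (-2.48), SAUR62 (-2.03), SAUR63 (-1.82), SAUR64 (-1.75), SAUR65 (-1.58), SAUR36 (-1.16), SAUR24 (-0.97), AT1G29490 (-0.80), SAUR9 (-0.80), SAUR4 (-0.78) and SAUR55 (-0.54). Without the libraries high in photosynthetic RNA, the slr-1 calls of SAUR77, SAUR24 and SAUR4 were kept and the other 11 were lost, SAUR15 with a change of sign to 0.0797. In the shy2-2 line the calls of SAUR62 and SAUR24 were lost.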

How the results depend on the processing

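Of 4168 alternative values for 318 called member results, 3819 kept direction and call, 348 kept direction but missed the threshold, and 1 reversed: SAUR15 at 6 h against 2 h in the slr-1 line went from -2.48 to 0.0797 without the libraries high in photosynthetic RNA. Of 476 alternative counts of called members, 438 were within 1.5 times the reported count. With only the groups compared in the fit, the count was 15 in place of 24 for auxin in DMSO at 2 h in the shy2-2 line, 1 in place of 2 for DEX at 6 h in the shy2-2 line, 0 in place of 1 for the change of the response there, and 4 in place of 7 and 9 in place of 14 for 6 h against 2 h in the shy2-2 and slr-1 lines. Without the filter, DEX at 6 h in the shy2-2 line gave 1. Without the libraries high in photosynthetic RNA the counts were 1 for DEX at 4 h in the shy2-2 line, 0 for the change of the response in each line (1 and 3 reported), and 4 for 6 h against 2 h in the slr-1 line. Leaving out 1 library at a time gave 0 to 1 for DEX at 4 h and 0 to 2 at 6 h in the shy2-2 line, 0 to 1 for its change and 4 to 7 for its late comparison; the slr-1 line gave 2 to 4 for DEX at 4 h, 1 to 4 for the change and 8 to 15 for the late comparison. The causes were not tested. Replicate numbers did not pair the samples: correlations of same-numbered libraries ran from -0.782 to 0.790 (median -0.019), and a library correlated best with its own number in 55 of 168 cases. With the replicate block 313 of 318 member results kept their call, and the DEX counts at 4 and 6 h stayed at 2, 2, 4 and 4. Depth limits the members under 1 CPM.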
